A study of Mus musculus with 54 samples.

Results

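The RNA of 8 chemokine genes was followed in naive CD4+ T cells before and after stimulation: Xcl1, Ccl1, Ccl3, Ccl4, Ccl5, Ccl17, Ccl22, and Cxcl10. They were picked by name, with earlier results of these data known, from the 55385 genes of each of 2 count tables. In WT cells Xcl1, Ccl3, and Ccl4 rose from low levels and led the 8 after stimulation, Ccl5 fell, Cxcl10 and Ccl22 peaked at 4 h, Ccl1 rose to a low level, and Ccl17 stayed near zero throughout. In sorted cells Ccl22 stayed near zero as well.

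Chemokines are small secreted proteins that bind G protein-coupled receptors on other leukocytes and direct their migration. XCL1 (lymphotactin) attracts dendritic cells that carry XCR1. CCL3 and CCL4 (MIP-1α and MIP-1β) and CCL5 (RANTES) attract monocytes and effector T cells, CCL1 binds CCR8, CCL17 and CCL22 bind CCR4, and CXCL10 is an interferon-induced ligand of CXCR3. Activated T cells are a known source of XCL1, CCL3, and CCL4, CCL5 is typical of memory and cytotoxic lymphocytes, and CCL17, CCL22, and CXCL10 are known mainly as products of dendritic cells, macrophages, and stromal cells.

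The cells came from pooled lymph nodes and spleens of C57BL/6 mice, which were 8 to 10 weeks old. One experiment, here named CD5/CD6, used a magnetic kit to enrich naive CD4+ T cells of 4 genotypes: WT, Cd5-/-, Cd6-/-, and, from mice with a deletion spanning both genes, Cd5-/-Cd6-/-. The other, here named LAT, used cell sorting of Lat fl-dtr maT-Cre animals, in which Cre is expressed in T cells, so that WT (hDTR+) and Lat-/- (hDTR-) cells came from the same kind of animal and the WT cells there still carry the floxed allele. RNA of unstimulated cells (0 h) was taken right after purification, and the other cells were cultured for 4 h or 20 h with plate-bound anti-CD3 (3 µg/ml) and anti-CD28 (1 µg/ml), so effects of stimulation and of culture cannot be told apart. There were 12 conditions in the former experiment and 6 in the latter, each with 3 samples, called libraries 1 to 3 by the replicate number in their labels. GEO's design text calls them biological replicates.

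Libraries held from 20554354 to 45222554 counts in the CD5/CD6 experiment and from 17784644 to 28501095 in the LAT experiment. At these depths, 3 counts, used as the floor, were worth 0.0631 to 0.136 and 0.105 to 0.176 CPM (counts relative to the library total scaled with edgeR's TMM factors), a limit that covers counting error only. The targeted genes followed the labels in the Cd5-/-Cd6-/- and Lat-/- cells and in all stimulated cells. Lat averaged 15.3, 7.92, and 12.9 CPM in Lat-/- cells at 0, 4, and 20 h. It averaged 249, 309, and 98.3 CPM in sorted WT cells, under the 704, 1223, and 532 CPM of enriched WT cells. That difference between the experiments was not tested. At 0 h, the libraries labelled Cd5-/- had 129, 719, and 105 CPM of Cd5 and 1298, 329, and 1084 of Cd6, and those labelled Cd6-/- had 724, 172, and 719 of Cd5 and 349, 1203, and 251 of Cd6 (libraries 1, 2, and 3). Library 2 of both groups thus goes against its label, with levels nearer to those of libraries 1 and 3 of the other group. Whether the 2 were exchanged was not tested. The main fits kept both under their labels, and results that rest on these 0 h groups were also computed without them. All 7 CD4 T cell markers examined summed to 3065 or more CPM in every library of both experiments. In the enriched cells, 6 B cell markers summed to 65.9 to 584 CPM at 0 h, 36.2 to 196 at 4 h, and 1.27 to 4.77 at 20 h, and 9 myeloid and dendritic cell markers summed to 49.5 to 391, 10.7 to 47.1, and 2.84 to 4.98 CPM. In the sorted cells neither sum exceeded 6.37 CPM at any time.

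Per kilobase of exons, the scale on which genes can be set side by side, Ccl5 led in unstimulated WT cells with 28.4 ± 4.96 CPM per kb (SD, n = 3) in the CD5/CD6 experiment and 20.4 ± 5.15 in the LAT experiment. Xcl1, Ccl3, and Ccl4 followed at 4.14 ± 1.09, 4.09 ± 2.17, and 3.38 ± 1.45 CPM per kb in the former, 3 levels that lay within each other's SD. At 4 h the order in the enriched WT cells was Xcl1 at 531 ± 81.0, Ccl4 at 183 ± 34.2, Ccl3 at 35.9 ± 12.7, Ccl5 at 13.2 ± 2.63, Ccl22 at 4.21 ± 0.912, Cxcl10 at 2.88 ± 1.59, Ccl1 at 0.816 ± 0.114, and Ccl17 at 0.249 ± 0.215 CPM per kb. Among neighbours in that order, Ccl22 and Cxcl10 differed by less than the SD of Cxcl10. At 20 h Ccl4 stood at 258 ± 85.7, Xcl1 at 167 ± 95.4, and Ccl3 at 69.6 ± 34.0 CPM per kb, and the ranges of these SD overlapped from one gene to the next. The exon length of Ccl1 includes a long noncoding transcript, so its level per kb is understated.

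**Figure D1:**
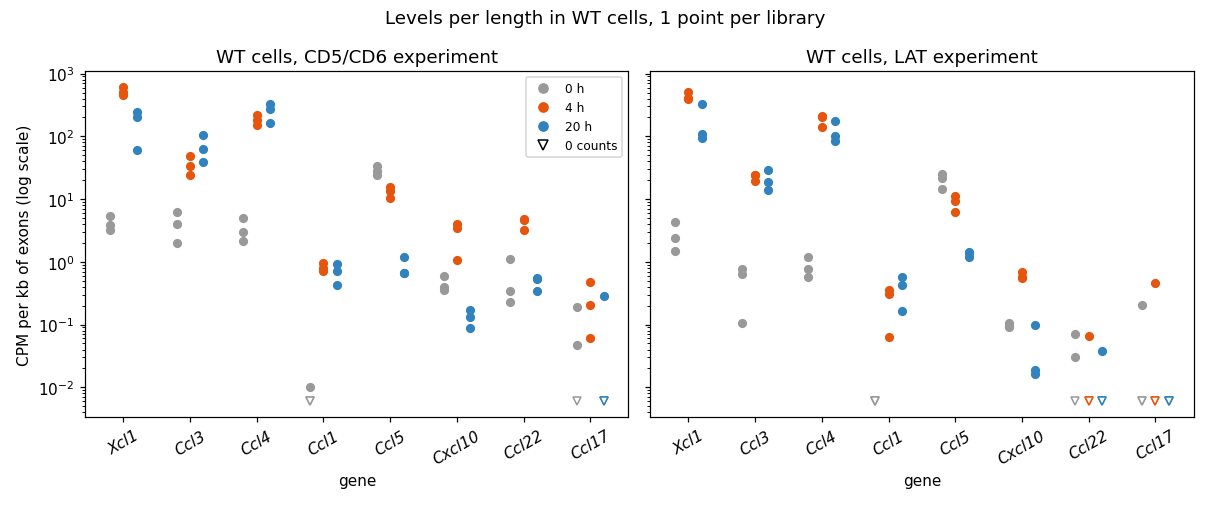
Level of each gene in CPM per kb of exons (log scale) in WT cells at 0 h (gray), 4 h (orange), and 20 h (blue), with 1 point per library and open triangles for libraries with 0 counts. Xcl1, Ccl4, and Ccl3 lead after stimulation in both experiments, while Ccl17 stays under 1 CPM per kb.

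The stretches of DNA just before the start of 4 members are given for reading beside their time courses: Xcl1, which peaked at 4 h, Ccl3, which stayed high to 20 h, Ccl1, which stayed low, and Cxcl10, which was brief. They are the 250 bases before the RefSeq start (GRCm38.p6), read along the gene's strand, in lower case with motif matches in capitals. RefSeq entries were at hand for 6 of the 8 genes (Ccl4 and Ccl5 had none). Motifs were searched on both strands: GGAAA, the core bound by NFAT, TGANTCA, the site of AP-1, GAAANNGAAA, an interferon response element (ISRE), TATAAA, and the kappaB motif.
Xcl1 (chr1:164935523-164935772, minus strand): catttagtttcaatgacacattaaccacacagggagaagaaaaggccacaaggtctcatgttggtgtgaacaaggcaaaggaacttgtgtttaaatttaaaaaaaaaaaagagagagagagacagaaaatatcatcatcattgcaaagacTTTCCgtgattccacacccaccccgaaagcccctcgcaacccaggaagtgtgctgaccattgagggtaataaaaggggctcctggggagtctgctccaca
Ccl3 (chr11:83649379-83649628, minus strand): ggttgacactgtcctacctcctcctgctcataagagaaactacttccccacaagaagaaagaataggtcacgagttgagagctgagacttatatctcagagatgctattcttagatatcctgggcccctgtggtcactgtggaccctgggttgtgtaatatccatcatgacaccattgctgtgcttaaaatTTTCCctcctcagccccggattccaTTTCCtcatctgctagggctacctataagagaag
Ccl1 (chr11:82179813-82180062, minus strand): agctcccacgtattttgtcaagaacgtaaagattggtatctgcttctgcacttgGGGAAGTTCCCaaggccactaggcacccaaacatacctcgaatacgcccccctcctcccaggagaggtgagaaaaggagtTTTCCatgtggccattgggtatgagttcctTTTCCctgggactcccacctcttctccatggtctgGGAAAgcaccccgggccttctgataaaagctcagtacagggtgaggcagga
Cxcl10 (chr5:92348890-92349139, minus strand): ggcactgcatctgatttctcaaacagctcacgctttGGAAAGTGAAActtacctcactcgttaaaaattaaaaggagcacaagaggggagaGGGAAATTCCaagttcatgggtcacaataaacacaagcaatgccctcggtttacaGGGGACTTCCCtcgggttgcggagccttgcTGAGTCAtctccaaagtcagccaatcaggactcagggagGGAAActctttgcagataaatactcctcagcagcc
The NFAT core occurred at 1 position in Xcl1, 2 in Ccl3, and 3 each in Ccl1 and Cxcl10, and 55.6% of all 32851 upstream windows of this length hold it. Cxcl10 held the ISRE match, from -213 to -204 counted from the start (2.98% of windows hold one), and it overlaps an NFAT core. It also held an AP-1 match from -74 to -68 (6.75% of windows) and kappaB matches from -159 to -150, where an NFAT core lies inside, and from -104 to -94 (7.25% of windows). Ccl1 had overlapping kappaB matches from -196 to -186. No TATAAA was found in the 4 windows, and 12.4% of windows hold it. The windows of Ccl22 and Ccl17 are not printed. That of Ccl22, which was also brief in enriched cells, held 0 matches to each of these motifs. That of Ccl17, which stayed near zero, held 1 NFAT core, as in Xcl1, and no other match. These matches describe letters and are not binding data.

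Xcl1 (ENSMUSG00000026573.7, chromosome 1, 164931644 to 164935527, minus strand, in GRCm38 as for all genes here) reached the highest level of the members at 4 h. Its level in enriched WT libraries 1, 2, and 3 was 1.66, 2.05, and 2.79 CPM at 0 h, 242, 267, and 325 at 4 h, and 31.2, 126, and 105 at 20 h. Every stimulated library lay above every unstimulated one, and every library at 20 h lay under all at 4 h. By the quasi-likelihood test of edgeR the log2 fold change (± SE) at 4 h was 6.99 ± 0.43 (adjusted p = 5.06e-24, corrected by Benjamini-Hochberg over all genes tested), and the change from 4 h to 20 h was -1.67 ± 0.33 (adjusted p = 2.47e-05). In sorted WT cells the levels were 1.25, 2.23, and 0.77 CPM at 0 h, 266, 211, and 206 at 4 h, and 48.4, 56.1, and 171 at 20 h. The same order of times was seen there, with library 3 standing apart at 20 h, and the 4 h response was 7.34 ± 0.22. The fall from 4 h to 20 h there (-1.31 ± 0.16, adjusted p = 9.60e-16) was lost with DESeq2 (adjusted p = 0.119, in a range of 1.42e-29 to 0.119 over the alternatives) and, by its fold change, without libraries 1 (-0.80 ± 0.22). Gm20743, on the opposite strand, overlaps Xcl1. It rose from 0.0727 to 0.482 CPM at 0 h to 6.39 to 12.5 at 4 h in enriched WT cells, and since use of strand in the counting is not given in the sources used here, reads of the overlap cannot be assigned for certain.

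Ccl3 and Ccl4, neighbors on chromosome 11 (Ccl3, ENSMUSG00000000982.5, 83647844 to 83649355, minus strand; Ccl4, ENSMUSG00000018930.3, 83662584 to 83664683, plus strand), rose with Xcl1 but did not fall back in enriched cells. WT libraries held 2.00, 3.28, and 1.41 CPM of Ccl4 at 0 h, 99.0, 119, and 144 at 4 h, and 109, 220.3, and 182 at 20 h. For Ccl3 they held 3.03, 4.85, and 1.53, then 18.7, 25.9, and 37.9, then 30.0, 81.4, and 48.6 CPM. Stimulated and unstimulated libraries did not overlap for either gene, and levels at 4 h and 20 h did. Responses at 4 h were 5.77 ± 0.37 (Ccl4, adjusted p = 4.92e-23) and 3.14 ± 0.42 (Ccl3, adjusted p = 1.73e-09) on the log2 scale. From 4 h to 20 h the log2 fold change was 0.96 ± 0.38 for Ccl3 (adjusted p = 0.0439, fold change under 2) and 0.50 ± 0.29 for Ccl4 (adjusted p = 0.229). In sorted WT cells Ccl4 went from 0.51, 0.785, and 0.385 CPM at 0 h to 133, 93.1, and 138 at 4 h and 54.8, 66.8, and 114 at 20 h. Ccl3 there went from 0.588, 0.0827, and 0.49 to 18.8, 15.0, and 18.3 and 10.7, 14.2, and 21.9 CPM. Both rose at 4 h (7.77 ± 0.24 for Ccl4 and 5.45 ± 0.31 for Ccl3), and from 4 h to 20 h the log2 fold change was -0.63 ± 0.16 for Ccl4 and -0.16 ± 0.23 for Ccl3, both under the fold threshold. The tables were fitted separately, so the time courses of enriched and sorted cells were not tested against each other.

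Ccl1 (ENSMUSG00000020702.13, chromosome 11, 82176657 to 82305690, minus strand) was at or near zero at 0 h and reached a few CPM. WT libraries of the CD5/CD6 experiment held 0, 0, and 1 counts at 0 h, 1.86, 1.71, and 2.23 CPM at 4 h, and 1.01, 2.21, and 1.71 at 20 h. With 1 count over the 3 unstimulated libraries, the 4 h level was 199 times higher, with an exact 95% counting interval of 35.3 to 7915. In the sorted WT cells all 3 unstimulated libraries had 0 counts, and the level was 0.841, 0.733, and 0.151 CPM at 4 h and 0.385, 1.36, and 1.02 at 20 h. Pooled over the 3 libraries, these levels were at least 14.2-fold and 24.6-fold higher than a floor of 3 counts over the 0 h group. Library 3 at 4 h held 4 counts, close to the floor.

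Ccl5 (ENSMUSG00000035042.2, chromosome 11, 83525778 to 83530518, minus strand) went the other way. Enriched WT libraries held 22.8, 26.6, and 32.3 CPM at 0 h, 10.1, 15.1, and 12.8 at 4 h, and 0.648, 1.14, and 0.647 at 20 h, with no overlap between times. The log2 fold change was -1.10 ± 0.28 at 4 h (adjusted p = 9.95e-04) and, without libraries 3, -0.97 ± 0.20, where the call was lost by its fold change (adjusted p = 4.60e-06). It was -5.07 ± 0.35 at 20 h (adjusted p = 2.41e-21). Sorted WT cells held 21.0, 23.7, and 14.1, then 10.8, 9.07, and 6.00, then 1.16, 1.33, and 1.37 CPM, again without overlap between 0 h and 20 h. There the 20 h fall passed (-3.93 ± 0.25, adjusted p = 7.11e-53, 7.24e-58 to 4.92e-05 over the alternatives), while the 4 h fall (-1.19 ± 0.21) was lost with DESeq2 and with the low-count filter (adjusted p = 0.163 and 0.0891, in a range of 1.44e-09 to 0.163 over the alternatives). NK cell markers (6 genes) summed to 35.5, 58.1, and 66.3 CPM in enriched WT libraries at 0 h and 11.7, 15.1, and 12.0 at 20 h, and to 17.8, 14.5, and 8.72 and 9.76, 11.0, and 9.14 in sorted WT libraries, where the ranges at the 2 times overlapped. The 5 gamma delta T cell markers summed to 38.2, 35.7, and 35.8 CPM at 0 h and 7.53, 5.2, and 5.56 at 20 h in enriched WT libraries, and to 37.3, 45.2, and 31.7 and 6.42, 7.48, and 7.02 in sorted ones. The 2 CD8 T cell markers summed to 30.3, 35.0, and 32.1 CPM at 0 h and 13.8, 13.0, and 12.4 at 20 h in sorted WT libraries. Neither of these sums overlapped between the times in sorted cells. The part of such cells in the fall was not tested, and in bulk RNA fewer cells that hold a transcript and less of it per cell cannot be told apart.

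Cxcl10 (ENSMUSG00000034855.13, chromosome 5, 92346638 to 92348889, minus strand) and Ccl22 (ENSMUSG00000031779.3, chromosome 8, 94745590 to 94751699, plus strand) were brief in enriched cells. WT libraries held 0.898, 0.813, and 1.33 CPM of Cxcl10 at 0 h, 2.42, 7.85, and 9.19 at 4 h, and 0.197, 0.295, and 0.381 at 20 h. All 4 h libraries lay above all others, and those at 20 h lay under those at 0 h. The 4 h response was 2.66 ± 0.46 (adjusted p = 1.56e-06) and the later fall -4.49 ± 0.55 (adjusted p = 9.12e-11) on the log2 scale. In sorted WT cells the peak was lower, with 0.235, 0.207, and 0.21 CPM at 0 h, 1.26, 1.28, and 1.55 at 4 h, and 0.0428, 0.0369, and 0.221 at 20 h. There the 4 h response was 2.62 ± 0.51 (adjusted p = 2.34e-06, 2.09e-07 to 0.00166 over the alternatives). Art3, on the opposite strand, overlaps Cxcl10, and no library of either experiment held over 1.68 CPM of it.

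Ccl22 in enriched WT cells went from 0.532, 0.783, and 2.57 CPM to 11.3, 7.35, and 10.7 at 4 h (log2 fold change 2.88 ± 0.47, adjusted p = 3.77e-07) and back to 0.789, 1.29, and 1.26 at 20 h. The unstimulated library 3, with the highest Ccl22 at 0 h, was also the one with the most B cell markers (163, 105, and 584 CPM in libraries 1, 2, and 3) and myeloid and dendritic cell markers (116, 114, and 271 CPM). Likewise, the 0 h libraries labelled Cd6-/- held 1.45, 0.477, and 3.04 CPM of Ccl22 and 84.1, 118, and 391 CPM of the 9 myeloid and dendritic cell markers, with library 3 the highest in both. Between times the markers went another way: at 4 h every library lay under every 0 h library in the marker sum, while Ccl22 and Cxcl10 were higher. The 0 h libraries labelled Cd5-/- held 0.406, 0.658, and 0.79 CPM of Ccl22 beside 49.5, 122, and 70.7 CPM of these markers, and the library with the most markers was not the one with the most Ccl22. That library, number 2, is one of those that go against their labels. WT libraries at 4 h held 18.9, 25.7, and 29.7 CPM of the markers, and library 3, with the most, was not the highest in Ccl22. At 4 h, Ccl22 was 4.75, 7.89, and 4.65 CPM in the Cd5-/- libraries, which held 10.7, 24.5, and 13.6 CPM of these markers, so the ranks differed. It was 7.79, 11.0, and 24.0 CPM in the Cd6-/- libraries, which held 16.3, 33.3, and 45.3, in the same order. In double knockout libraries the order was the same at both times. Ccl22 was 0.717, 1.42, and 1.19 CPM beside 81.3, 214, and 155 at 0 h, and 5.01, 15.3, and 12.8 beside 15.9, 47.1, and 28.7 at 4 h. Cxcl10 at 4 h ranked as the marker sum did across the libraries of WT, Cd5-/-, and Cd5-/-Cd6-/- cells. In Cd6-/- libraries, at 3.14, 28.1, and 18.0 CPM, it did not. In sorted cells, where these markers stayed at or under 6.37 CPM, Ccl22 never exceeded 4 counts in a library. Cxcl10 never exceeded 1.55 CPM in sorted WT cells, but it reached 9.06 CPM at 4 h in sorted Lat-/- cells. The part of other cells in the levels of Ccl22 and Cxcl10 was not tested.

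**Figure D2:**
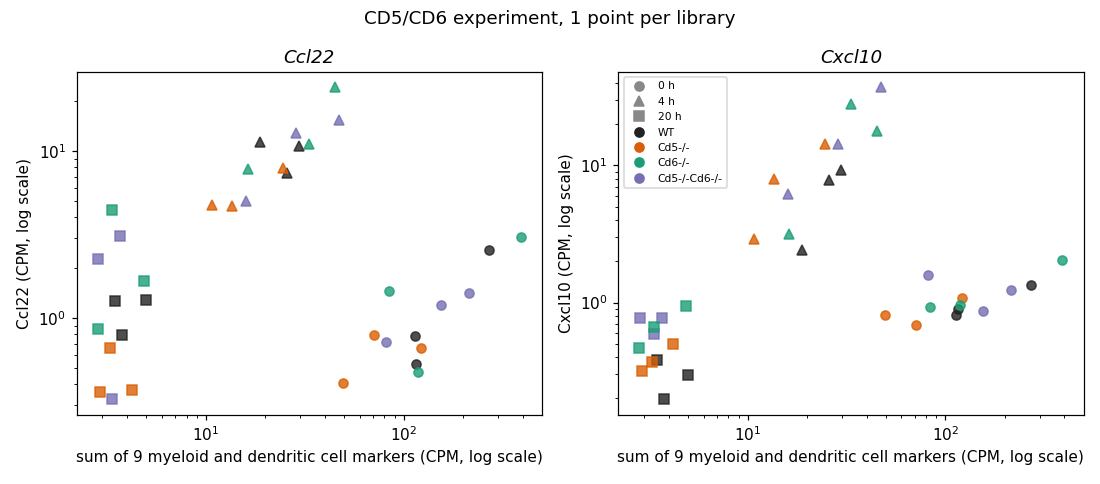
Ccl22 (left) and Cxcl10 (right) against the sum of 9 myeloid and dendritic cell markers, all in CPM on log scales, with 1 point per library of the CD5/CD6 experiment, colored by genotype and shaped by time. Libraries at 4 h (triangles) hold the highest chemokine levels at intermediate marker sums of 10.7 to 47.1 CPM, and libraries at 20 h (squares) hold under 5 CPM of markers.

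Ccl17 (ENSMUSG00000031780.2, chromosome 8, 94810453 to 94812036, plus strand) stayed near zero in every condition. Of 36 libraries in the CD5/CD6 experiment, 13 had 0 counts and 25 had 3 or fewer, with a maximum of 17 counts. Of 18 in the LAT experiment, 15 had 0 counts and 16 had 3 or fewer, with a maximum of 6. Calls were made for it at 4 h in Cd6-/- cells (6, 5, and 17 counts against 0, 2, and 0 at 0 h, a ratio of 14.2 with a counting interval of 3.58 to 123) and for its return to near zero at 20 h in Cd5-/- and Cd6-/- cells. Each of the 3 was lost when at least 1 replicate number was left out. The return in Cd6-/- cells was lost whichever number was left out, with DESeq2, and with library totals without TMM, and 5 of 11 alternatives called it. Ccl22 was near zero in sorted cells, where 12 of 18 libraries had 0 counts and 15 had 3 or fewer. Ccl1 began near zero and did not stay there, with 3 or fewer counts in 11 of 36 and 6 of 18 libraries, all at 0 h. In the LAT experiment Ccl3 and Ccl4 had 3 or fewer in 3 and 2 of 18, also all at 0 h. Cxcl10 had 3 or fewer there in 3 of 18, of which 1 was a Lat-/- library at 0 h and 2 were WT libraries at 20 h. Sorted WT cells held 6, 5, and 6 counts of Cxcl10 at 0 h and 1, 1, and 5 at 20 h. A count of 3 or fewer sets a limit at this depth and does not show absence.

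Counted over the 8 members in enriched WT cells, 7 were called at 4 h (6 higher, and Ccl5 lower), where 19.3% of all 32290 genes tested were called. The median log2 fold change over the 8 was 3.01, against 0 over all genes. At 20 h, 6 were called (Xcl1, Ccl1, Ccl3, and Ccl4 higher, Ccl5 and Cxcl10 lower, background 29.6%), and 4 were lower at 20 h than at 4 h (Xcl1, Ccl5, Ccl22, and Cxcl10, background 21%). Sorted WT cells gave 6 calls at 4 h, where 17.3% of 27780 genes were called, 5 at 20 h (background 23.5%), and 3 from 4 h to 20 h (background 17.2%). Genes were called where they changed over 2-fold with an adjusted p under 0.05. In the LAT experiment the fit over all genes with at least 1 read treated every gene as varying by the common trend (infinite prior degrees of freedom), and errors of the members were a median of 2.68 times wider with the low-count filter, where the prior was 6.46. For members called in Lat-/- against WT, or in the difference of their responses, the range over the alternatives is therefore given beside the adjusted p.

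**Figure D3:**
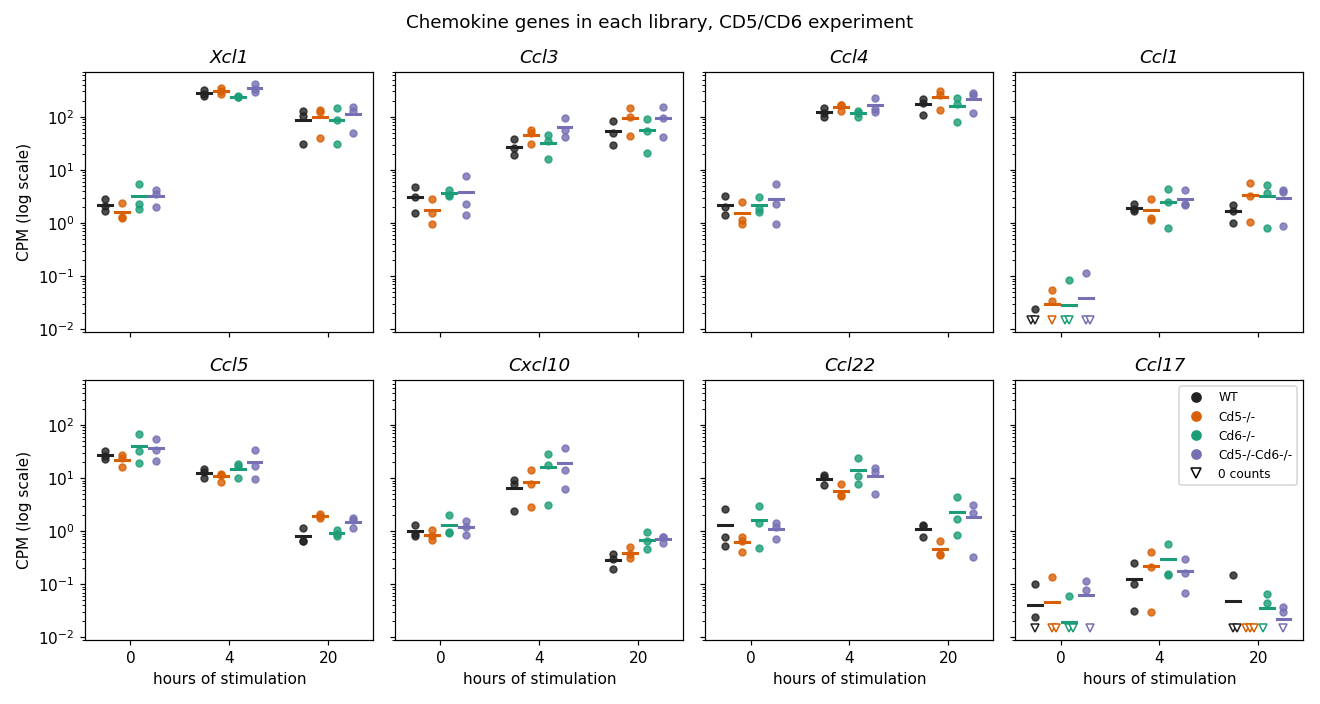
CPM (log scale) of the 8 genes at 0, 4, and 20 h in the 4 genotypes of the CD5/CD6 experiment, with 1 point per library, bars at the mean of 3 libraries, and open triangles for 0 counts. In every genotype all libraries at 4 h and 20 h lie above those at 0 h for Xcl1, Ccl3, Ccl4, and Ccl1, and all at 20 h lie under those at 0 h for Ccl5.

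The question put to the Cd5-/-, Cd6-/-, and Cd5-/-Cd6-/- cells was whether loss of these receptors changed the responses. At 4 h Xcl1, Ccl1, Ccl3, Ccl4, Ccl22, and Cxcl10 were higher than at 0 h in all 3. In all, 7 of 8 genes were called in Cd5-/- cells (background 19.5%). Cd6-/- cells had 8 such calls (background 18%) and double knockout cells 6 (background 17.2%). At 20 h, 5 were called in each of the 3 (Xcl1, Ccl1, Ccl3, and Ccl4 higher and Ccl5 lower, backgrounds 30%, 28.2%, and 30.3%). From 4 h to 20 h, 6 were called in Cd5-/- cells (background 21.3%). There were 5 such calls in Cd6-/- (background 20.8%) and 4 in double knockout cells (background 21.4%). Without the 0 h libraries that go against their labels, Ccl5 lost its 4 h call in Cd5-/- cells by its fold change (-0.88 ± 0.26), Ccl17 gained one there, and no other call of a response to 0 h changed. Xcl1, Ccl5, Ccl22, and Cxcl10 were lower at 20 h than at 4 h in all 4 genotypes.

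Xcl1 at 4 h was 268, 306, and 346 CPM in libraries 1, 2, and 3 of Cd5-/- cells. Cd6-/- libraries held 232, 245, and 237 CPM and double knockout libraries 288, 411, and 338 CPM. Each range overlapped that of WT. At 20 h Xcl1 was 39.1, 125, and 134, 30.8, 144, and 86.9, and 49.3, 156, and 131 CPM in the same order. Library 1 was the lowest of its group in all 4 genotypes at 20 h, not for Xcl1 alone but also for Ccl1, Ccl3, Ccl4, Ccl22, and Cxcl10, and at 4 h for Xcl1, Ccl3, Ccl4, Ccl5, and Cxcl10. 

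With the replicate number as a block, 2 members were called in a knockout against WT of the CD5/CD6 experiment. Both were in Cd5-/-Cd6-/- cells at 4 h and are given below. Some other edgeR fits without the block also called members, as given below. In the main edgeR fit, which had no block, no member was called in a knockout against WT, at 0 of 72 tests, and DESeq2 called 0. In that edgeR fit 14 had an unadjusted p under 0.05. At 0 h, 0.0619% (Cd5-/-), 0% (Cd6-/-), and 0.0248% (Cd5-/-Cd6-/-) of all genes were called. At 4 h the background was 0.0743%, 0.0031%, and 0.0434% in that order, and at 20 h it was 0.0186%, 0.0186%, and 0.0434%. In the main edgeR fit the differences between a knockout's response and that of WT gave 0 calls among the members in 48 tests, and DESeq2 gave 0. In that edgeR fit 5 had an unadjusted p under 0.05. Over all genes these differences were called for 0.0031% and 0.0031% (Cd5-/-, 4 h and 20 h), 0% and 0.0031% (Cd6-/-), and 0% and 0% (Cd5-/-Cd6-/-). The share of all genes at an unadjusted p under 0.05 was not counted, and the tests share libraries, so neither count at that threshold is read as a result.

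The smallest adjusted p among these tests in the main edgeR fit was that of Cxcl10 at 4 h in Cd5-/-Cd6-/- cells, and Ccl3 was higher there too in every library. Ccl3 was 41.4, 93.2, and 55.3 CPM there against 18.7, 25.9, and 37.9 in WT. The groups did not overlap, and the log2 fold change was 1.21 ± 0.38 with an adjusted p of 0.767. Cxcl10 was 6.22, 37.0, and 14.2 CPM against 2.42, 7.85, and 9.19, higher in each library than in the WT library of the same number, with a log2 fold change of 1.57 ± 0.42 (adjusted p = 0.357). Same-numbered libraries of these 2 groups deviated together (r = 0.238, 0.362, and 0.336 across genes), and with the replicate number as a block both genes were called: 1.13 ± 0.25 (adjusted p = 0.0271) for Ccl3 and 1.47 ± 0.33 (adjusted p = 0.029) for Cxcl10. Without the block, both were also called in edgeR fits without the 0 h libraries that go against their labels (adjusted p = 0.0168 for Ccl3 and 0.00823 for Cxcl10). Both were called without libraries 1 and without libraries 3 too, and Ccl3 with the compared groups alone (adjusted p = 0.0174). Over the alternatives the adjusted p ran from 1.42e-21 to 1 for Ccl3 and from 3.90e-10 to 1 for Cxcl10. The lowest values came from fits without libraries 3. Every fit of this experiment with a replicate number left out had infinite prior degrees of freedom, against 50.9 in the main fit. Neither Ccl3 nor Cxcl10 was called with DESeq2, with the low-count filter, or without libraries 2 (0.77 ± 0.25 and 0.81 ± 0.39). The 9 myeloid and dendritic cell markers were 15.9, 47.1, and 28.7 CPM in double knockout and 18.9, 25.7, and 29.7 in WT libraries at 4 h, and the 6 NK cell markers 15.7, 36.3, and 19.1 and 12.9, 22.4, and 15.9. The 5 gamma delta T cell markers summed to 62.3, 86.6, and 64.6 CPM in double knockout and 23.1, 21.4, and 21.2 in WT libraries, without overlap, and 4 of the 5 were called higher (median log2 fold change 2.32). Their part in the difference was not tested.

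Cxcl10 in Cd6-/- cells at 4 h was 3.14, 28.1, and 18.0 CPM, with a log2 fold change against WT of 1.34 ± 0.42 (adjusted p = 0.86). It was called without libraries 1 (1.44 ± 0.32, adjusted p = 0.00466) and without libraries 3 (1.59 ± 0.28, adjusted p = 1.10e-05). It was 2.89, 14.3, and 7.9 CPM in Cd5-/- cells (0.37 ± 0.41, adjusted p = 1). At 20 h Cxcl10 lay above the WT libraries in every Cd6-/- (0.463, 0.952, and 0.663 CPM) and double knockout library (0.593, 0.777, and 0.773 CPM), with log2 fold changes of 1.27 ± 0.60 and 1.31 ± 0.60 (adjusted p = 1 and 1). Ccl5 at 20 h was 1.75, 2.11, and 1.92 CPM in Cd5-/- libraries, each above the WT libraries, at 1.26 ± 0.36 (adjusted p = 0.661, 0.012 to 1 over the alternatives). It was called without libraries 2 (1.49 ± 0.35, adjusted p = 0.0277) and without libraries 3 (1.15 ± 0.27, adjusted p = 0.012), both fits with infinite prior degrees of freedom. The gamma delta T cell markers summed to 14.4, 14.3, and 12.9 CPM in these Cd5-/- libraries and 7.53, 5.2, and 5.56 in WT libraries, without overlap, and their part was not tested. In Cd5-/- cells Ccl3 went from 1.54, 2.84, and 0.963 CPM at 0 h to 30.5, 50.3, and 55.6 and 43.1, 146, and 98.8 at 4 h and 20 h. The difference of that 20 h response from the WT response was 1.68 ± 0.58 on the log2 scale with an adjusted p of 1. Without the 0 h libraries that go against their labels it was 2.18 ± 0.45 (adjusted p = 0.0102, 1.25e-07 to 1 over the alternatives). The same difference for Ccl5, not called with all libraries, was 1.72 ± 0.40 without them (adjusted p = 0.0352). It was called in 3 of 11 alternatives. Ccl3 rose from 4 h to 20 h in Cd5-/- cells at 1.08 ± 0.38 (adjusted p = 0.0195), and with the replicate block this change fell under the fold threshold (0.95 ± 0.24). It was lost with DESeq2 and with the low-count filter too. Cxcl10 at 20 h against 0 h in Cd5-/- cells was -1.07 ± 0.54 (adjusted p = 0.123), and the block turned it into a call (-1.22 ± 0.48, adjusted p = 0.0335).

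Lat-/- cells lack the adaptor that links the T cell receptor to its downstream enzymes. At 0 h 1 member was called against WT (Xcl1, background 0.961% of genes), at 4 h 4 (Xcl1 and Ccl4 lower, Ccl1 and Cxcl10 higher, background 11.7%), and at 20 h 6 (Xcl1, Ccl3, and Ccl4 lower, Ccl1, Ccl5, and Cxcl10 higher, background 24.4%). At both stimulated times the members thus differed in opposite directions.

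**Figure D4:**
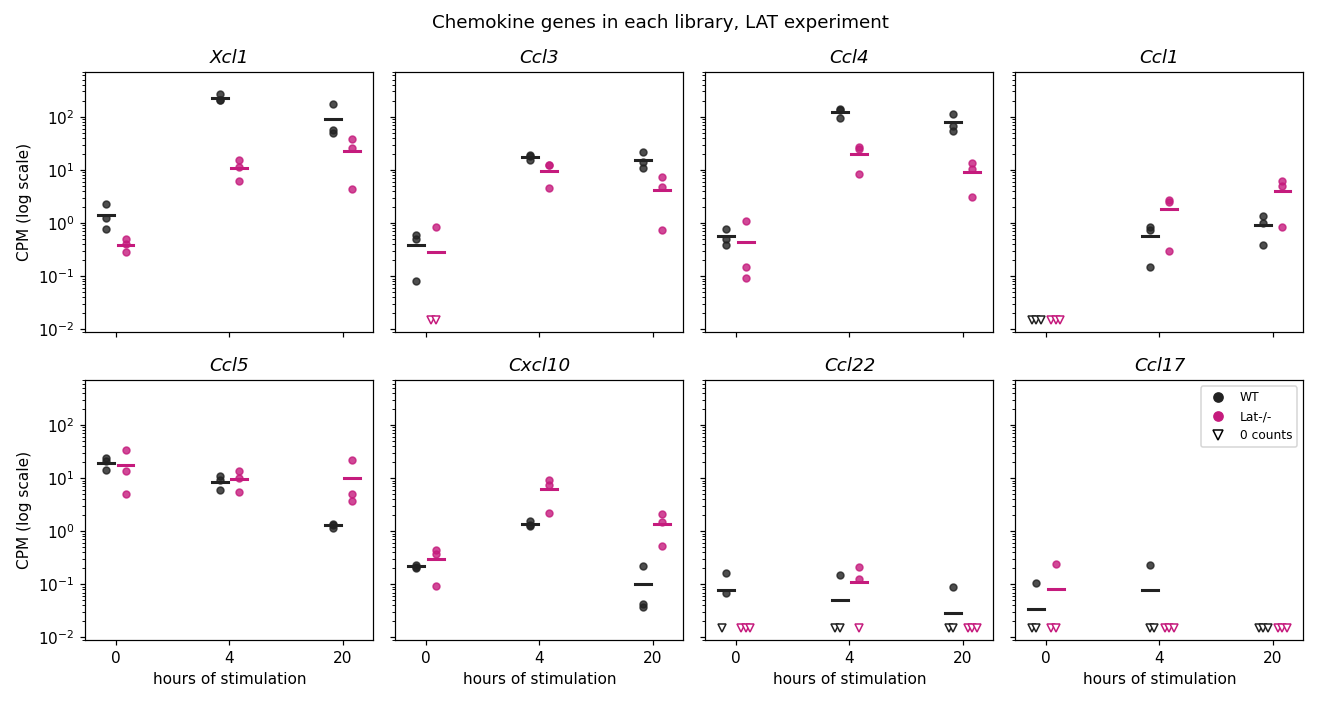
CPM (log scale) of the 8 genes at 0, 4, and 20 h in sorted WT (black) and Lat-/- (pink) cells, with 1 point per library, bars at the mean of 3 libraries, and open triangles for 0 counts. Xcl1 and Ccl4 are lower in Lat-/- cells at 4 h and 20 h, Cxcl10 is higher at both times, and Ccl5 is higher at 20 h.

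Xcl1 was 0.494, 0.28, and 0.407 CPM in Lat-/- libraries at 0 h, 11.4, 6.28, and 15.3 at 4 h, and 25.4, 4.45, and 38.7 at 20 h. All Lat-/- libraries lay under all WT libraries at each time. At 4 h the log2 fold change against WT was -4.36 ± 0.18 (adjusted p = 1.66e-126, 6.13e-143 to 9.66e-06 over the alternatives), and at 20 h it was -2.01 ± 0.16 (adjusted p = 5.34e-34, 7.13e-36 to 0.00637). At 0 h the counts were 10, 6, and 10 against 32, 54, and 22 in WT, and the call (-1.82 ± 0.30, adjusted p = 2.60e-07) was lost with DESeq2 (adjusted p = 0.285), with the low-count filter, and without libraries 2, in a range of 5.16e-08 to 0.697. The Lat-/- cells still raised Xcl1 over their own 0 h level (4.80 ± 0.25 at 4 h and 5.84 ± 0.24 at 20 h). The 4 h response was smaller than that of WT, with a difference of -2.55 ± 0.39 on the log2 scale (adjusted p = 2.76e-09, 2.76e-09 to 0.155 over the alternatives, where the low-count filter alone lost the call). At 20 h the difference of the responses was -0.19 ± 0.38 (adjusted p = 0.977).

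Ccl4 was 0.148, 0.0932, and 1.1 CPM in Lat-/- libraries at 0 h, 26.9, 8.51, and 24.8 at 4 h, and 10.3, 3.04, and 13.7 at 20 h. Stimulated Lat-/- libraries all lay under the WT libraries of the same time. The log2 fold change against WT was -2.59 ± 0.17 at 4 h (adjusted p = 7.67e-48, 2.06e-60 to 0.00133 over the alternatives) and -3.13 ± 0.18 at 20 h (adjusted p = 1.59e-65, 1.16e-70 to 4.58e-05). Ccl3 was 0, 0, and 0.854 CPM at 0 h, 12.4, 4.58, and 12.1 at 4 h, and 4.7, 0.742, and 7.27 at 20 h. At 4 h its difference from WT (-0.83 ± 0.23, adjusted p = 0.00192) was under the fold threshold, although no library overlapped, and at 20 h it was -1.89 ± 0.24 (adjusted p = 5.66e-14, 2.68e-18 to 0.126, lost with DESeq2). Lat-/- library 3 at 0 h stood apart, with 0, 0, and 21 counts of Ccl3, 3, 2, and 27 of Ccl4, and 279, 108, and 821 of Ccl5 in libraries 1, 2, and 3. The 4 h response of Ccl4 differed from that of WT by -2.38 ± 0.39 with all libraries and by -0.27 ± 0.86 without libraries 3 (adjusted p = 4.81e-08 and 1, in a range of 2.76e-09 to 1), and DESeq2 and the low-count filter lost the call too. For the 20 h response of Ccl4 the values were -2.92 ± 0.40 and -0.83 ± 0.76 (adjusted p = 4.04e-12 and 0.593, in a range of 2.14e-12 to 0.593). For Ccl3 at 20 h the difference of the responses turned sign without libraries 3, from -1.55 ± 0.51 to 3.74 ± 1.55 (adjusted p = 0.0115 and 0.0879, in a range of 1.15e-04 to 0.466), where the remaining Lat-/- libraries had 0 counts at 0 h, so that the fitted value depends on the prior count. That difference was also lost with DESeq2, with the low-count filter, and without libraries 2.

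Ccl1, Cxcl10, and Ccl5 were the members above WT in Lat-/- cells. Ccl1 was at 0 counts in all 6 unstimulated libraries and reached 2.48, 0.293, and 2.76 CPM at 4 h and 6.07, 0.853, and 4.96 at 20 h in Lat-/- libraries. Pooled over the 3 libraries, those levels were at least 43.2-fold and 81.8-fold above a floor of 3 counts over the 0 h group. Single libraries came closer to the floor: library 2 at 4 h held 5 counts, where 3 counts were worth 0.176 CPM. Lat-/- library 2 lay within the WT range at both times. At 20 h the log2 fold change against WT was 2.08 ± 0.46 (adjusted p = 2.74e-05, 4.83e-09 to 0.0947 over the alternatives), and without libraries 1 it was 1.25 ± 0.58 and no longer called. At 4 h it was 1.72 ± 0.49 (adjusted p = 0.00256, 1.45e-05 to 0.326), a call lost with DESeq2, with the low-count filter, and without libraries 3 (0.87 ± 0.56).

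Cxcl10 was 0.444, 0.0932, and 0.366 CPM in Lat-/- libraries at 0 h, 9.06, 2.17, and 7.44 at 4 h, and 2.07, 0.52, and 1.51 at 20 h. All stimulated Lat-/- libraries lay above the WT libraries of the same time. The log2 fold change against WT was 2.19 ± 0.42 at 4 h (adjusted p = 2.18e-06, 5.05e-10 to 0.00894 over the alternatives) and 3.73 ± 0.59 at 20 h (adjusted p = 1.67e-09, 3.29e-10 to 2.16e-04), where the 3 WT libraries held 1, 1, and 5 counts. The 20 h response was larger than in WT by 3.27 ± 0.87 (adjusted p = 9.53e-04, 3.03e-04 to 0.0429). All Lat-/- libraries at 20 h lay under those at 4 h, as in WT (-2.21 ± 0.42, adjusted p = 6.72e-06). The 9 myeloid and dendritic cell markers were 1.12, 1.64, and 2.03 CPM in Lat-/- and 5.23, 3.67, and 6.37 in WT libraries at 4 h.

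Ccl5 fell by less than 2-fold in Lat-/- cells. Libraries 1, 2, and 3 held 13.8, 5.03, and 33.4 CPM at 0 h, 10.3, 5.46, and 13.7 at 4 h, and 5.11, 3.79, and 21.5 at 20 h. The ranges overlapped between times, and the log2 fold change at 20 h was -0.78 ± 0.21 (adjusted p = 0.00354), under the fold threshold. Without libraries 3 it was -1.06 ± 0.26 and called. Library 3 was the highest at each time. Against WT the difference was 2.98 ± 0.25 at 20 h (adjusted p = 2.38e-31, 7.62e-32 to 6.64e-04 over the alternatives), and the 20 h responses differed by 3.14 ± 0.32 (adjusted p = 1.33e-20, 4.04e-25 to 0.00512). The 6 NK cell markers, which Ccl5 can accompany, were 0.86, 0.705, and 2.69 CPM in Lat-/- and 9.76, 11.0, and 9.14 in WT libraries at 20 h. The 2 CD8 T cell markers summed to 19.5, 22.0, and 27.5 CPM in Lat-/- and 13.8, 13.0, and 12.4 in WT libraries at 20 h, and the 5 gamma delta T cell markers to 8.34, 10.7, and 10.8 and 6.42, 7.48, and 7.02. Every Lat-/- library was higher in both of these sums and lower in the NK cell sum than every WT library. Within the CD8 list the genes differed, with Cd8b1 at a log2 fold change of 0.98 and Cd8a, the less abundant, at -4.56. The part of such cells in the level of Ccl5 was not tested. Responses of the members in Lat-/- cells gave 5 calls at 4 h (background 6.7%), 5 at 20 h (background 4.21%), all of them higher, and 4 from 4 h to 20 h (background 4.1%). The last were Xcl1 higher and Ccl3, Ccl4, and Cxcl10 lower, and of these Cxcl10 alone was also called by DESeq2 and with the low-count filter. Differences of the response from WT were called for 2 members at 4 h (background 8.71%) and 4 at 20 h (background 19.5%). The response comparisons of WT and Lat-/- cells share no samples, while those against WT at a time and the differences share the same libraries.

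**Figure D5:**
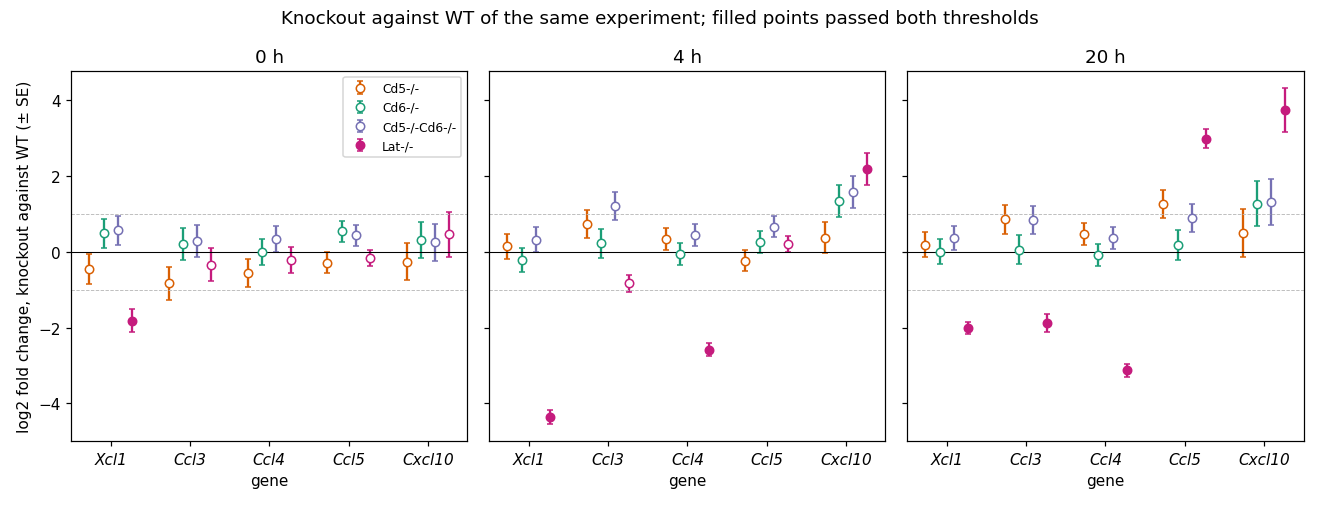
Log2 fold change (± SE) of 5 members in each knockout against WT of the same experiment at 0, 4, and 20 h, with filled points where both thresholds were passed and dashed lines at a fold change of 2. Filled points are seen for Lat-/- (pink) alone, under 0 for Xcl1, Ccl3, and Ccl4 and above 0 for Cxcl10 and Ccl5.

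The time courses most like each member were found by Pearson's r of log2 CPM over the 12 condition means of the CD5/CD6 experiment, among 10791 other genes whose mean reached 50 counts. For Xcl1 these were Rgs16 (r = 0.998), Bcl2a1b (0.997), and Spry1 (0.997), with r of 0.976, 0.922, and 0.938 over the 6 conditions of the LAT experiment. Ccl4 was most like Hspa8, Slc9b2, and Pdcd1lg2 (each 0.998), with r of 0.848, 0.915, and 0.979 in the LAT experiment. Ccl3 was most like Tbkbp1 (0.988), Slc16a3 (0.987), and Ccl4 (0.986), and its r with Ccl4 in the LAT experiment was 0.987. Ccl5 was most like Stard10 (0.997), Klrk1 (0.994), and Rassf1 (0.992), with 0.757, 0.946, and 0.929 in the LAT experiment. Ccl1 went with Lif (0.996), Slc16a1 (0.995), and Rangap1 (0.995), but r in the LAT experiment was 0.335, 0.334, and 0.0317. Cxcl10 went with Itgb8 (0.995), Il21 (0.978), and Zbtb10 (0.975), with 0.370, 0.610, and 0.861 in the LAT experiment. Ccl22 went with Gadd45g (0.984), Socs1 (0.967), and Zeb2 (0.959), with 0.454, 0.196, and 0.171 there. These are descriptions over condition means that share libraries across genes, and the 12 conditions fall at 3 times. Ccl17 was too low for this comparison.

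Of 33 other chemokine ligands listed, 27 had a read in the CD5/CD6 experiment, and 2 were higher and 3 lower in WT cells at 4 h (background 19.3%), and 0 higher and 8 lower at 20 h (background 29.6%). Both are shares near the background. Their median log2 fold change was -0.05 at 4 h and -1.81 at 20 h (0 and -0.46 with genes at 0 in a group put at their bound), against 0 over all genes at both times. In sorted WT cells 16 had a read, of which 4 were higher and 0 lower at 4 h (background 17.3%) and 2 higher and 0 lower at 20 h (background 23.5%). B cell and myeloid and dendritic cell markers also fell by 20 h in enriched cells, and the part of such cells in the falls of ligands there was not tested. None of these ligands met the rule for naming in the WT responses. Ccl20, a ligand of CCR6, was higher in Lat-/- than in WT cells at 4 h (2.08 ± 0.58) and 20 h (3.01 ± 0.68), from a mean of 13.7 counts. Cxcl2 was called lower at 4 h, from a mean of 1.5 counts.

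Of 24 chemokine receptor genes, 4 were higher and 8 lower in enriched WT cells at 4 h (background 19.3%), and 2 higher and 16 lower at 20 h (background 29.6%), with median log2 fold changes of -0.95 and -3.60 (-0.95 and -2.77 with bounds). In sorted WT cells 21 had a read, of which 6 were higher and 1 lower at 4 h (background 17.3%), and 3 higher and 7 lower at 20 h (background 23.5%). In enriched cells B cell markers summed to 65.9 to 584 CPM at 0 h and 1.27 to 4.77 at 20 h. Myeloid and dendritic cell markers summed to 49.5 to 391 and 2.84 to 4.98 CPM. The part of such cells in the falls of receptors there was not tested. Receptors for members were among those called. Ccr8, which binds CCL1, had a log2 fold change of 6.28 ± 0.24 at 4 h and 3.03 ± 0.21 at 20 h in enriched WT cells, and of 6.45 ± 0.20 and 2.86 ± 0.18 in sorted WT cells. Ccr4, which binds CCL17 and CCL22, rose by 3.11 ± 0.29 and 4.31 ± 0.30 in the former and by 2.05 ± 0.21 and 4.01 ± 0.22 in the latter. Cxcr3, the receptor for CXCL10, was higher at 4 h (3.10 ± 0.34 in enriched and 4.24 ± 0.22 in sorted WT cells). At 20 h it was lower than at 0 h in enriched cells (-1.52 ± 0.35) and not called in sorted cells (-0.44 ± 0.22). Cxcr6 rose at 4 h (1.04 ± 0.32 and 1.88 ± 0.26), and Cxcr4 and Ccr9 were lower at 20 h (-6.77 ± 0.44 and -3.61 ± 0.27 in enriched, -5.04 ± 0.19 and -3.65 ± 0.30 in sorted cells).

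No receptor or other ligand was called in a knockout against WT of the CD5/CD6 experiment with edgeR. In Lat-/- cells 1 receptor was lower at 0 h (Ccr8, background 0.961%), 3 were higher and 4 lower at 4 h (background 11.7%), and 5 higher and 3 lower at 20 h (background 24.4%). Ccr8 was -3.02 ± 0.17 at 4 h and -2.75 ± 0.18 at 20 h against WT, the opposite direction to its ligand Ccl1. Cxcr3 was lower at 4 h (-4.22 ± 0.23), opposite to its ligand Cxcl10, and at 20 h its log2 fold change was -0.38 ± 0.24. Ccr4 was lower at both times (-1.36 ± 0.20 and -4.49 ± 0.23), and Cx3cr1 was lower at 4 h and higher at 20 h (-2.21 ± 0.43 and 3.97 ± 0.67). At 4 h Cxcr1, Ccr2, and Ccr7 were higher, and at 20 h Cxcr1, Cxcr4, Cx3cr1, Ccr9, and Ccr2 were higher and Ccr6 was lower with Ccr4 and Ccr8.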

How the data were processed

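RNA-seq counts of naive CD4+ T cells came as 2 tables of 55385 genes, with 36 and 18 samples and no other columns of samples (0). The authors deposited raw counts of reads per gene, and the submitters' processing notes name bcl2fastq 2.17.1.14, STAR, featureCounts, DESeq2, and the build GRCm38. The annotation release and the strand setting are not given in the sources used here. Genes with at least 1 read in total (32290 and 27780) were tested per table with edgeR 4.0.16 (R 4.3.3): TMM factors, glmQLFit with 1 coefficient per genotype and time, glmQLFTest, and Benjamini-Hochberg adjustment over all genes. Genes were called where they changed over 2-fold with an adjusted p under 0.05. CPM used TMM-scaled totals. Depth was 20554354 to 45222554 and 17784644 to 28501095 counts.

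Alternatives were DESeq2 1.42.0, RLE factors, library totals without TMM, edgeR's filterByExpr (the low-count filter), the compared groups alone, the replicate block, the adjusted p alone, each replicate number left out, and, chosen after seeing the data, removal of the 2 unstimulated libraries whose Cd5 and Cd6 levels go against their labels. Same-numbered samples of compared groups deviated together (every pair's r over 0.1, from genes whose mean reached 10 counts) in 13 of 21 comparisons of the CD5/CD6 experiment and 1 of 9 of the LAT experiment. The main tests were not blocked in any comparison. The blocked value stands beside a result where it changed a call.

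All 8 members were named. Other ligands and receptors were named if called in a WT response in both experiments at a mean of 50 counts or more, or in a knockout against WT. Members and lists were chosen with earlier results of these data known. The fits were tested on simulated data.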

Additional observations from a re-analysis of the deposited data

Results flagged for a closer look

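The response of Lat-/- cells differed from that of WT cells by a test of the difference itself for 6 combinations of gene and time, all in the LAT experiment. Values are differences of log2 fold changes, Lat-/- minus WT, from edgeR. At 4 h the difference was -2.55 ± 0.39 for Xcl1 (adjusted p = 2.76e-09) and -2.38 ± 0.39 for Ccl4 (adjusted p = 4.81e-08). At 20 h it was -1.55 ± 0.51 for Ccl3 (adjusted p = 0.0115), -2.92 ± 0.40 for Ccl4 (adjusted p = 4.04e-12), 3.14 ± 0.32 for Ccl5 (adjusted p = 1.33e-20), and 3.27 ± 0.87 for Cxcl10 (adjusted p = 9.53e-04). DESeq2 and the low-count filter both called 3 of the 6: Ccl4, Ccl5, and Cxcl10 at 20 h. Of these, Ccl4 lost its call without libraries 3 (-0.83 ± 0.76).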

How the results depend on the processing

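Over 38 counts of called members, 381 of 407 alternative values stayed within 1.5 times the reported count and 26 did not, and of 1502 alternative values for single genes 1398 kept their direction and side of the threshold, 50 gained a call, 47 lost one, and 7 changed sign. In the CD5/CD6 experiment, where no member was called in a difference between genotypes, the count for the difference of the 20 h response of Cd5-/- from WT rose to 2 with the compared groups alone and to 2 without the doubtful 0 h libraries, and that for Cd5-/-Cd6-/- against WT at 4 h rose to 1, 2, and, with the replicate block, 2. With 1 replicate number left out, counts ran from 0 to 1 for Cd5-/- against WT at 20 h, from 1 to 2 for the Cd5-/- 20 h difference, from 0 to 1 for its 4 h difference, from 0 to 1 for Cd6-/- against WT at 4 h, and from 0 to 2 and 0 to 1 for Cd5-/-Cd6-/- against WT and its difference at 4 h. In the LAT experiment the 4 calls from 4 h to 20 h in Lat-/- cells became 1 with DESeq2 and 1 with the low-count filter (2 to 4 with a number left out), the 1 call against WT at 0 h became 0 and 0 (0 to 4), and the 2 differences at 4 h became 1 and 0 (2 to 2, but not the same members: without libraries 3 Ccl4 lost its call and Ccl3 gained one), while the 4 differences at 20 h ran from 2 to 4. Without libraries 3 the calls at 0 h were Ccl3, Ccl4, Ccl5, and Xcl1. For Lat-/- against WT, signs changed with a number left out. At 0 h Ccl3 ran from -5.97 to 0.56 (positive without libraries 1), Ccl4 from -2.38 to 0.56 (0.10 without libraries 1 and 0.56 without libraries 2), and Ccl5 from -1.26 to 0.42 (0.01 and 0.42 likewise). The response difference of Ccl3 ran from -1.51 to 5.01 at 4 h and from -2.77 to 3.74 at 20 h, positive without libraries 3. In that fit the remaining Lat-/- libraries had 0 counts of Ccl3 at 0 h, so the fitted value depends on the prior count. Why Lat-/- library 3 stood apart at 0 h was not tested. With the replicate block, Xcl1 from 4 h to 20 h in Lat-/- cells fell under the fold threshold (0.92), in a comparison whose numbers did not pair. Both low counts at 0 h in sorted cells and 3 samples a group limit these comparisons.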
